A study of Mus musculus with 8 samples.

Results

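The genes described here are 31 predicted or known targets of the let-7 microRNAs other than the Lin28, Arid3, Igf2bp, Hmga, Myc, Ras and D cyclin families, taken from a given list of symbols and matched to the gene names on the array. The array carried 43 probes for them, of 39429 probes in all. All 31 had a probe that passed the filter on dim probes, of 22927 genes or unnamed transcripts tested. The let-7 microRNAs are short RNAs that lead the silencing complex to messenger RNAs, mainly through the bases of their seed, and lower the stability and translation of those messengers. LIN28 proteins bind let-7 precursors and block their maturation, and LIN28B is known to be higher in fetal than in adult blood progenitors. Known let-7 targets include receptors of growth factors, cell cycle regulators and transcription factors.

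RNA came from pro-B cells, precursors that have not yet made an antibody, of BALB/c mice without Rag1, a recombinase gene whose loss stops B cells at that stage, so every group carried this deletion. The groups were adult bone marrow (BM) cells given a Lin28b retrovirus, BM cells given the empty pMIG vector, fetal liver (FL) cells of gestation day 16 given a let-7b retrovirus, and FL cells given the empty MSCV vector. Each group had 2 arrays. A BM sort pooled 2 mice and a FL sort pooled the embryos of 1 mother (8 on average). The cells grew with IL-7 on OP9, a mouse stromal line, in a plate of 24 wells of which 12 received each virus, and cells positive for GFP were sorted 4 days after transduction. Per the labels the 2 arrays of a group were separate sorts. The labels do not say whether a virus and its empty vector with the same number came from the same sort. The viral vectors, not the cells' own promoters, drove Lin28b and let-7b. Mature let-7 was not measured.

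Levels are log2 signals relative to the 75th percentile of the same array, so that 0 is that percentile and a difference of 1 is a doubling. On this scale a Lin28b probe lay at 0.35 and 0.07 on the Lin28b arrays of BM, whereas on both BM empty-vector arrays its signal did not clear background. All 13 of the pro-B markers on the array (of 14 listed) were well above background on every array. The 4 BM arrays shared slide 1, while slide 2 held the FL arrays with number 1 and slide 3 those with number 2. Correlations between arrays across genes, which are not independent replicates, ran from 0.970 to 0.989 among FL arrays, from 0.991 to 0.994 among BM arrays and from 0.910 to 0.943 across the tissues. The median SD of the 31 targets between 2 arrays was 0.05 with Lin28b and 0.06 with empty vector in BM, against 0.15 with let-7b and 0.17 with empty vector in FL. The p-values measure only the spread between these arrays. Having 2 arrays per group limits the precision, and an exact two-sided permutation test of 2 against 2 arrays cannot go below p = 0.333.

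The transduced microRNA and 4 relatives are shown from RefSeq (GRCm38.p6) because the seed, bases 2 to 8 in capitals, is what the family shares. Of 11 mature family members in that table, 10 have the seed of let-7b, and let-7j differs.
mmu-let-7b-5p: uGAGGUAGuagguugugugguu
mmu-let-7a-5p: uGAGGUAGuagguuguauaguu
mmu-let-7i-5p: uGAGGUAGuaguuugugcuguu
mmu-miR-98-5p: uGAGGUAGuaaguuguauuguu
mmu-let-7j: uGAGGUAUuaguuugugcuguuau
Mouse let-7b lies on chromosome 15 at 85707325 to 85707346 on the plus strand of GRCm38.p6. Outside the seed, let-7a differs from let-7b at 2 positions, and let-7i and miR-98 at 3 each.

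The DNA complement of the seed, CTACCTC, was searched in the probe sequences, which carry the sense of the messenger. It stood in 3 of the 43 probes of the targets (6.98%) and in 150 of all 39429 probes (0.38%), while its reverse complement stood in 0 of the 43 and in 0.198% of all. The stretch of each of these 3 probes up to 1 base past the match is shown, with the match in capitals.
Pbx2: caagagtgtctgactcggatatCTACCTCg
Pbx3: gcgctcacttaCTACCTCt
Slc20a1: acagccttccatgttcatctgtCTACCTCt
Per the array design (mm9) the Pbx2 probe lies at chr17:34733355-34733414 on the plus strand, the Pbx3 probe at chr2:34027481-34027540 on the minus strand and the Slc20a1 probe at chr2:129037286-129037345 on the plus strand. A match is a description of the probe and not a proven site, and probes cover only a small stretch of each messenger. The share of matches among the target probes is not independent of the list, which was made of predicted or known let-7 targets. The exon or UTR in which a probe lies was not analysed here.

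With Lin28b in BM, most of the targets lay a little higher than with empty vector, and none passed the test. The fold change was above 0 for 25 of 31 targets (80.6%) and for 40.7% of all genes, with a median of 0.24 over the targets and -0.04 over all genes. Called genes are those with limma's Benjamini-Hochberg adjusted p below 0.05 over all genes tested, and 0 of 31 targets were called, with 0% of all genes called. At an unadjusted p below 0.05, 7 of 31 targets were higher (22.6%) and 0 lower, against 1.95% higher and 1.62% lower among all genes. Both Lin28b arrays lay above both empty-vector arrays for 22 of the targets (71%), against 18.4% of all genes, and below them for 4, against 32.3% of all genes. The 25 became 24 to 26 under every other setting tried. The stromal markers also lay higher on the Lin28b arrays. Summed over the 18 stromal markers on the array, signals relative to the 75th percentile were 44.0 and 30.6 with Lin28b and 21.8 and 23.9 with empty vector, with 15 of the 18 well above background on all 4 arrays. Of the 13 pro-B markers tested, 11 lay below 0 with Lin28b (median -0.15), against 59.3% of all genes. Of the 17 myeloid markers, 14 and 17 were well above background with Lin28b, against 11 and 12 with empty vector. Summed myeloid signals were 89.6 and 98.1, against 95.4 and 97.6. The part of these markers in the difference was not tested. In sorted bulk cells a change in the share of a cell type and a change in RNA per cell cannot be told apart.

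With let-7b in FL, most of the targets lay lower than with empty vector, and again none passed. The fold change was below 0 for 23 of 31 targets (74.2%) and for 57.2% of all genes, with a median of -0.17 over the targets and -0.06 over all genes. These counts include Gatm, which was in the test through its BM signal and was not well above background on any FL array, and without it 22 of 30 lay below 0. Called targets were 0 of 31, against 0.0305% of all genes (0.0218% higher and 0.00872% lower). At an unadjusted p below 0.05, 7 were lower (22.6%) and 0 higher, against 5.35% lower and 4.42% higher among all genes. Both let-7b arrays lay below both empty-vector arrays for 11 targets (35.5%), against 18.2% of all genes, and above them for 0, against 11.9%. The median difference of the targets was -0.18 within slide 2 and -0.21 within slide 3, and 18 of the 31 (17 of 30 without Gatm) were negative within each, against 35.3% of all genes. With normexp background correction (limma's model-based subtraction) 15 of the 31 were above 0 in place of 8, while the median over all genes moved to 0.34 and that over the targets to -0.16. Summed stromal marker signals were 15.4 and 9.17 with let-7b, against 7.35 and 8.70 with empty vector, and their part in the result was not tested.

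**Figure D1:**
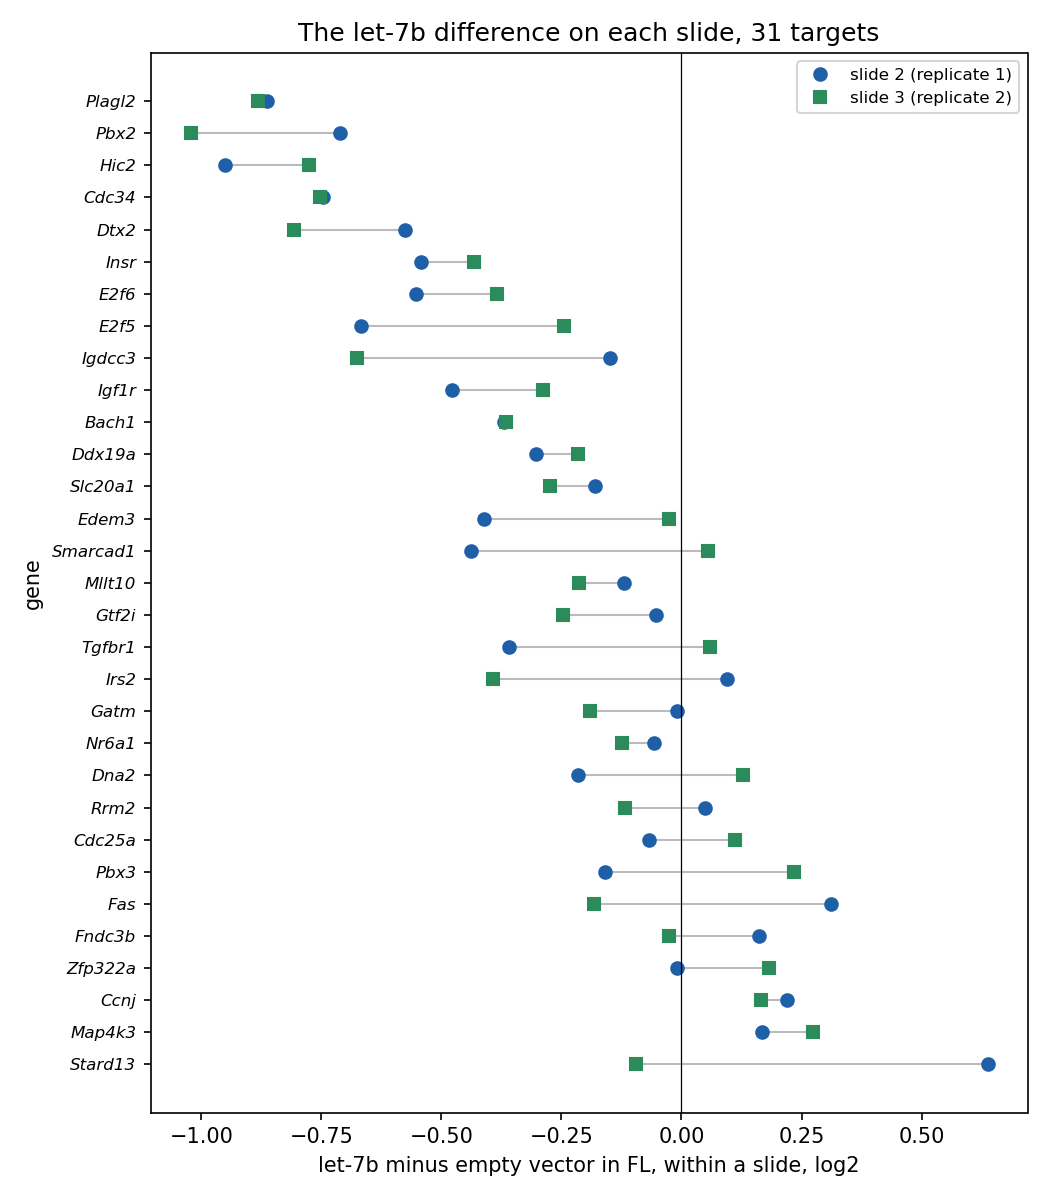
Difference between let-7b and empty vector in FL for each of the 31 targets (rows), in log2, within slide 2 (circles) and within slide 3 (squares). Of the 31 targets, 18 lie below 0 on both slides, and Plagl2, Pbx2, Hic2 and Cdc34, in the top rows, have the lowest mean differences.

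The effects of Lin28b and of let-7b, which share no array, were then set against each other by testing the Lin28b difference in BM minus the let-7b difference in FL. A positive value means that a gene lay higher, relative to its own empty vector, with Lin28b than with let-7b. This value was above 0 for 27 of 31 targets (87.1%), or 26 of 30 without Gatm, and for 51.7% of all genes, with a median of 0.39 over the targets and 0.02 over all genes. With normexp background correction it was above 0 for 21 of the 31, with a median of 0.33 over the targets and -0.33 over all genes. No target was called (0.00436% of all genes, which is 1 gene, was), while 8 of 31 had an unadjusted p below 0.05 with a positive value and 0 with a negative one, against 3.3% and 3.6% of all genes. The pattern of higher with Lin28b and lower with let-7b held for 18 targets, against 23.9% of all genes, and the opposite pattern held for Pbx3 alone, against 25.9% of all genes. In 10 targets the groups did not overlap in either tissue and ran higher with Lin28b and lower with let-7b, against 4.34% of all genes. These were Bach1, Cdc34, Ddx19a, E2f5, E2f6, Hic2, Igf1r, Pbx2, Plagl2 and Slc20a1. The reverse with no overlap held for 0 targets and 4.89% of all genes. Across the 31 targets the sizes of the effects were only weakly related, with a Pearson r of -0.16 and a Spearman rho of -0.17.

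**Figure D2:**
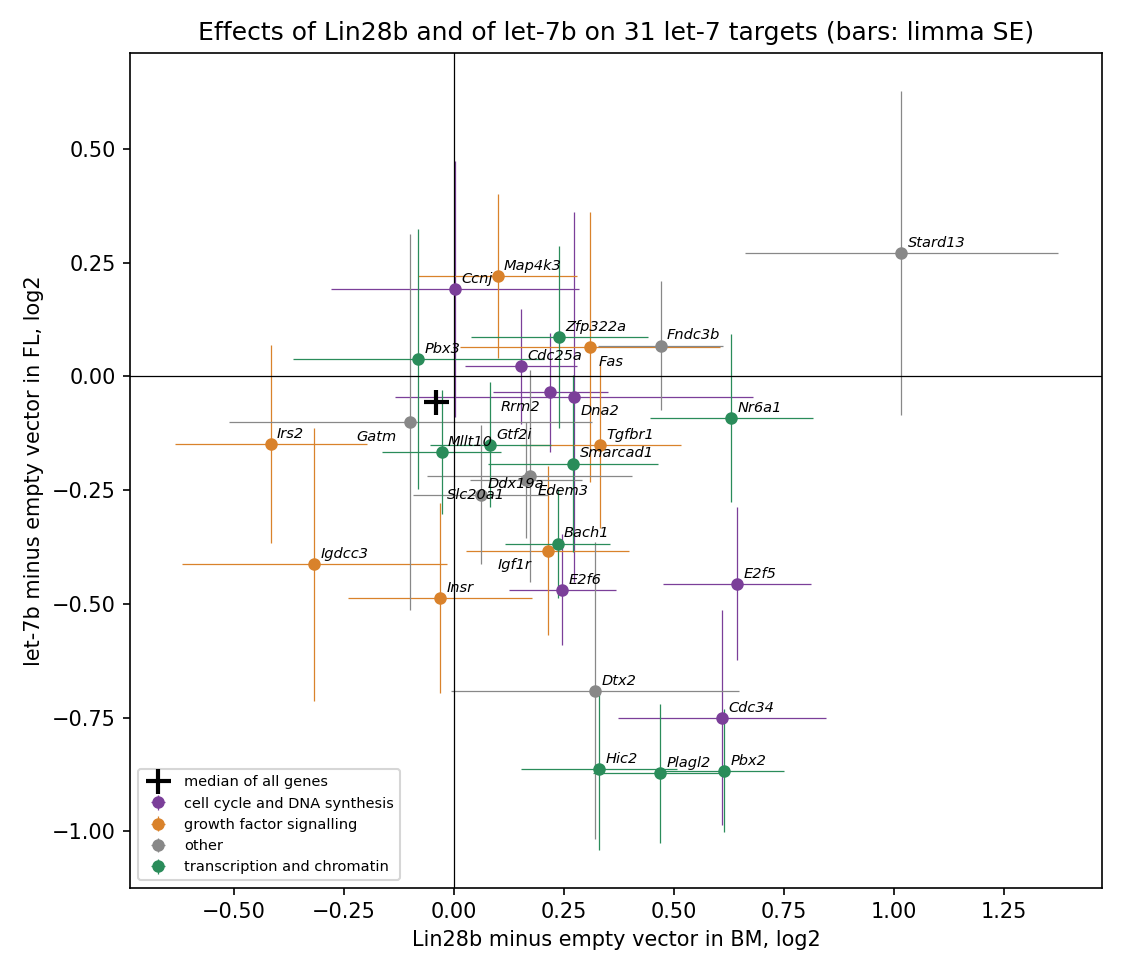
Lin28b minus empty vector in BM (x axis) against let-7b minus empty vector in FL (y axis) for the 31 targets, in log2, coloured by role, with limma standard errors as bars. The lower right field, higher with Lin28b and lower with let-7b, holds 18 of the targets, and the cross marks the median of all genes at -0.04 and -0.06.

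Among the transcription and chromatin factors, 8 of 10 lay above 0 with Lin28b (median 0.26) and 8 of 10 below 0 with let-7b (median -0.18), and 0 of 10 were called in either comparison. This group holds 5 of the 8 targets that had an unadjusted p below 0.05 in the test of the difference between the effects. They are Pbx2, Plagl2, Hic2, Bach1 and Nr6a1.

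Pbx2 encodes a homeodomain partner of HOX proteins, and its tested probe is the one with the seed match shown above. Pbx2 stood at 1.70 and 1.76 with Lin28b, against 1.12 and 1.10 with BM empty vector. It stood at 1.16 and 1.10 with let-7b, against 1.87 and 2.12 with FL empty vector. The groups were apart in both tissues. The fold changes were 0.62 ± 0.14 (SE, n = 2 per group) with Lin28b (limma adjusted p = 1) and -0.87 ± 0.14 with let-7b (limma adjusted p = 0.139), or -0.71 and -1.02 within the slides. Each such SE is limma's, from a spread shared by the 4 groups. It is therefore the same for Lin28b and let-7b, although the targets varied more between FL arrays than between BM arrays. The effects differed by 1.48 ± 0.19 (limma adjusted p = 0.139, 95% interval 1.01 to 1.96). With limma's trended and robust variance, Pbx2 was called for let-7b (adjusted p = 0.0444) and for the difference of effects (adjusted p = 0.0296). Over all genes that variance gave 85 calls for let-7b and 56 for the difference, against 7 and 1 in the main fit. Without FL empty-vector replicate 1 the let-7b difference of Pbx2 was -0.99.

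Plagl2, a zinc finger transcription factor, has its tested probe at mm9 chromosome 2, 153054236 to 153054295. Plagl2 stood at 1.09 and 1.24 with Lin28b, against 0.74 and 0.65 with BM empty vector. It stood at 0.27 and 0.04 with let-7b, against 1.13 and 0.92 with FL empty vector. The groups did not overlap in either tissue. The differences were 0.47 ± 0.15 with Lin28b (limma adjusted p = 1) and -0.87 ± 0.15 with let-7b (limma adjusted p = 0.162), with -0.86 and -0.88 within the slides. With the replicate number as a block and trended, robust variance, Plagl2 was called for let-7b (limma adjusted p = 0.0401) and for the difference of effects (limma adjusted p = 0.0402). Over all genes that setting gave 133 calls for let-7b and 80 for the difference. The effects differed by 1.34 ± 0.22 (limma adjusted p = 0.195). Its other 2 probes, which are dimmer, ran the same way, at 0.46 and 0.46 with Lin28b and at -0.97 and -0.52 with let-7b.

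Hic2 encodes a zinc finger repressor (probe at mm9 chromosome 16, 17263319 to 17263378). Hic2 stood at 0.16 and 0.17 with Lin28b, against -0.21 and -0.13 with BM empty vector. It stood at -1.16 and -0.76 with let-7b, against -0.21 and 0.01 with FL empty vector. The larger gap was the one in FL, and neither pair of groups overlapped. The differences were 0.33 ± 0.18 with Lin28b and -0.86 ± 0.18 with let-7b (limma adjusted p = 0.229), with -0.95 and -0.78 within the slides, and the effects differed by 1.19 ± 0.25 (limma adjusted p = 0.303). A second Hic2 probe differed less, by 0.00 with Lin28b and -0.27 with let-7b.

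Bach1 encodes a haem-binding repressor that pairs with small MAF proteins (probe at mm9 chromosome 16, 87733532 to 87733591). Bach1 stood at 0.13 and 0.07 with Lin28b, against -0.10 and -0.16 with BM empty vector. It stood at 0.35 and 0.26 with let-7b, against 0.72 and 0.62 with FL empty vector. The steps were small but the arrays of a group lay close together, so no groups overlapped. The differences were 0.24 ± 0.12 with Lin28b and -0.37 ± 0.12 with let-7b (limma adjusted p = 0.418), which was -0.37 on each slide, and the effects differed by 0.60 ± 0.17 (limma adjusted p = 0.458).

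Nr6a1 encodes an orphan nuclear receptor of early development (probe at mm9 chromosome 2, 38582439 to 38582498). Nr6a1 was dim, at -5.14 and -5.36 with Lin28b and at -5.69 and -6.07 with BM empty vector, where 1 of 2 arrays was well above background. It stood at -3.97 and -4.17 with let-7b, against -3.91 and -4.05 with FL empty vector, and there the groups overlapped. The difference with Lin28b was 0.63 ± 0.19 (limma adjusted p = 1) and that with let-7b was -0.09 ± 0.19 (95% interval -0.55 to 0.37). The effects differed by 0.72 ± 0.26 (limma adjusted p = 0.640), and with normexp background correction that value was -0.49.

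The other 5 factors had smaller differences between the effects. Smarcad1, a chromatin remodelling ATPase, differed by 0.27 ± 0.19 with Lin28b and by -0.19 ± 0.19 with let-7b, with -0.44 and 0.06 within the slides. Gtf2i, which encodes the general factor TFII-I, differed by 0.08 ± 0.14 and -0.15 ± 0.14, and its second probe by -0.05 and -0.42. Mllt10, a partner of the histone methyltransferase DOT1L, differed by -0.03 ± 0.14 and -0.17 ± 0.14. The zinc finger gene Zfp322a differed by 0.24 ± 0.20 and 0.09 ± 0.20. Pbx3, a paralog of Pbx2 whose probe also holds a seed match, differed by -0.08 ± 0.29 with Lin28b (95% interval -0.79 to 0.63) and by 0.04 ± 0.29 with let-7b (95% interval -0.67 to 0.75). Pbx2 and Pbx3 thus both carry CTACCTC in their probes while the measured differences of Pbx3 were small with wide intervals. The difference between these paralogs was not tested.

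**Figure D3:**
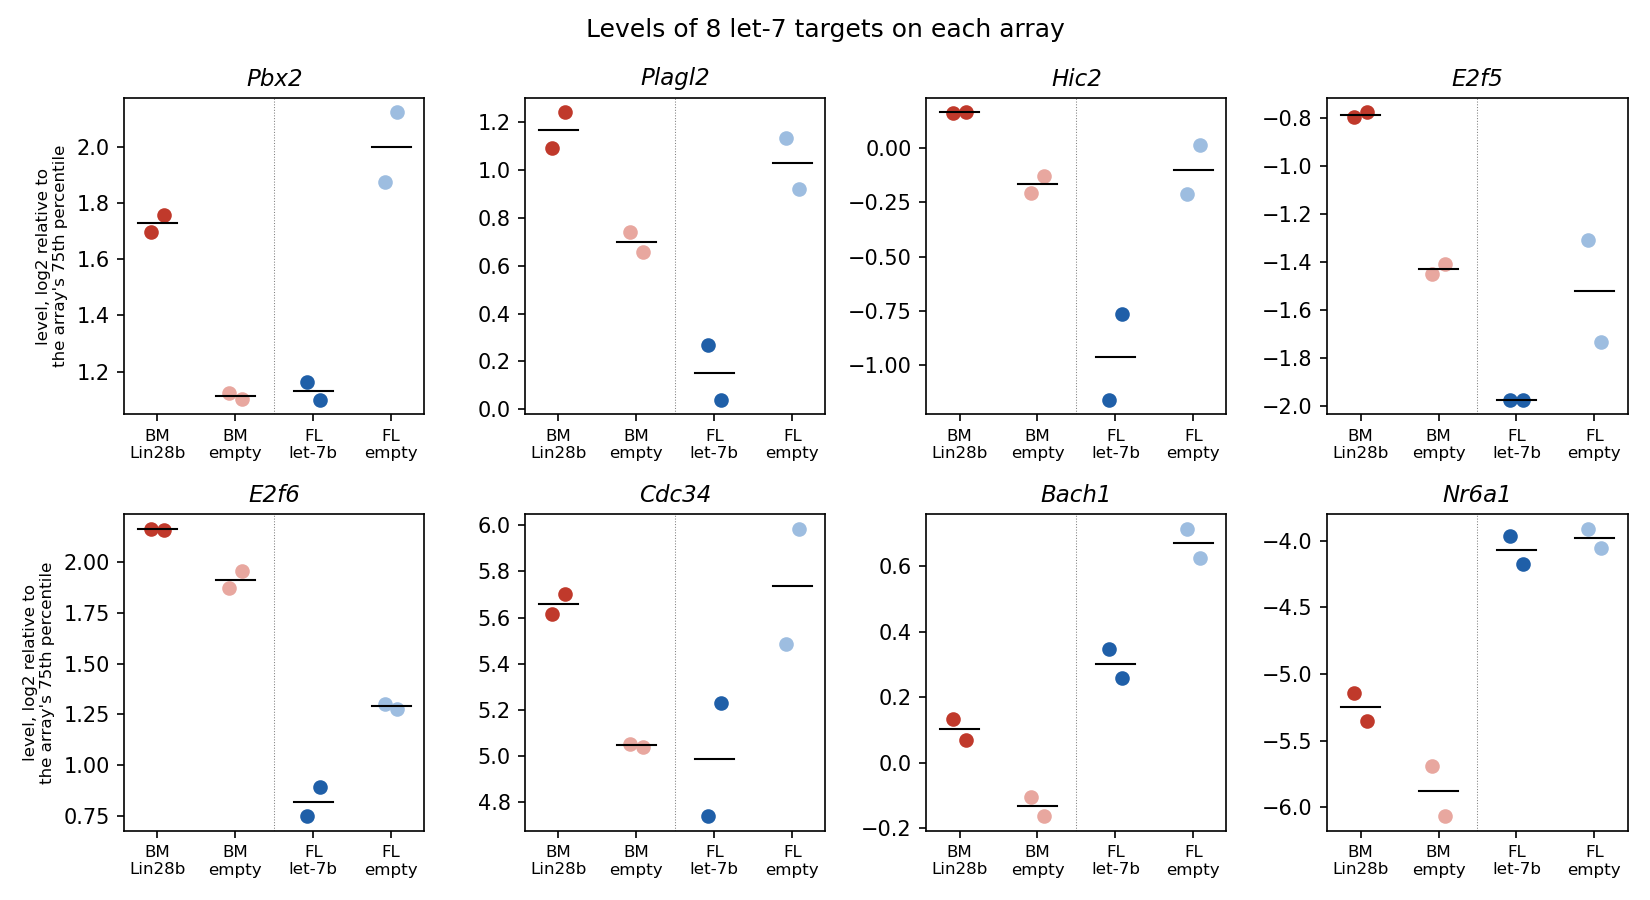
Levels of the 8 targets with the smallest p in the test of the difference between the effects, on each of the 8 arrays, in log2 relative to the array's 75th percentile. Points are arrays and lines are group means. Apart from Nr6a1 in FL, the 2 arrays of each virus lie apart from the 2 of its empty vector in every panel.

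Among the cell cycle and DNA synthesis genes, 7 of 7 lay above 0 with Lin28b by their tested probes (median 0.25). With let-7b 5 of 7 lay below 0 (median -0.04), and 0 of 7 were called in either comparison. The lowest let-7b values of this group belonged to Cdc34, E2f6 and E2f5.

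E2f5 encodes an E2F protein of the repressor type that acts with RB family proteins (probe at mm9 chromosome 3, 14605676 to 14605735). E2f5 stood at -0.80 and -0.78 with Lin28b, against -1.45 and -1.41 with BM empty vector. It stood at -1.98 on both let-7b arrays, against -1.31 and -1.73 with FL empty vector. The groups were apart in both tissues. The difference with Lin28b was 0.64 ± 0.17, and that with let-7b was -0.46 ± 0.17 (limma adjusted p = 0.478), or -0.67 and -0.24 within the slides. The effects differed by 1.10 ± 0.24 (limma adjusted p = 0.320). With normexp background correction the let-7b difference turned to 0.11.

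E2f6 encodes an E2F repressor that acts without RB family proteins (probe at mm9 chromosome 12, 16833463 to 16833522). E2f6 stood at 2.16 on both Lin28b arrays, against 1.87 and 1.96 with BM empty vector. It stood at 0.75 and 0.89 with let-7b, against 1.30 and 1.28 with FL empty vector. No groups overlapped. The differences were 0.25 ± 0.12 with Lin28b and -0.47 ± 0.12 with let-7b (limma adjusted p = 0.324), with -0.55 and -0.38 within the slides, and the effects differed by 0.72 ± 0.17 (limma adjusted p = 0.368).

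Cdc34 encodes a ubiquitin-conjugating enzyme that works with SCF ligases (probe at mm9 chromosome 10, 79151080 to 79151139). Cdc34 stood at 5.61 and 5.70 with Lin28b, against 5.05 and 5.04 with BM empty vector. It stood at 4.74 and 5.23 with let-7b, against 5.49 and 5.99 with FL empty vector. The FL arrays differed from slide to slide by about as much in both groups, so that the difference with let-7b was -0.75 on each slide. The differences were 0.61 ± 0.24 with Lin28b and -0.75 ± 0.24 with let-7b (limma adjusted p = 0.400), and the effects differed by 1.36 ± 0.33 (limma adjusted p = 0.385). With the replicate number as a block and trended, robust variance, the difference of effects was called (limma adjusted p = 0.0337), as it was for 80 of all genes.

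The genes of DNA synthesis and CDK activation differed less between let-7b and empty vector. Cdc25a, the phosphatase that activates CDK2, differed by 0.15 ± 0.13 with Lin28b and by 0.02 ± 0.13 with let-7b (95% interval -0.29 to 0.34). Rrm2, the small subunit of ribonucleotide reductase, differed by 0.22 ± 0.13 with Lin28b and by -0.03 ± 0.13 with let-7b (95% interval -0.36 to 0.29). For both genes the Lin28b arrays lay above the BM empty-vector arrays, while the FL groups overlapped. Dna2, a nuclease and helicase of DNA replication, differed by 0.27 ± 0.41 and -0.04 ± 0.41, and its second, dimmer probe by -0.24 and 0.33. Ccnj, which encodes cyclin J, differed by 0.00 ± 0.28 and 0.19 ± 0.28, and its second probe by 0.15 and -0.09. Of the 9 targets with several kept probes, 4 had probes of both signs with Lin28b and 3 with let-7b.

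Among the receptors, adaptors and kinases of growth factor and death signalling, 4 of 7 lay above 0 with Lin28b (median 0.10) and 5 of 7 below 0 with let-7b (median -0.15), with 0 of 7 called. Insr, the insulin receptor gene, stood at -2.38 and -1.91 with let-7b, against -1.84 and -1.48 with FL empty vector. Its let-7b difference was -0.49 ± 0.21 (limma adjusted p = 0.535), its other 2 probes gave -0.54 and -0.45, and with normexp background correction it was 0.10. With Lin28b Insr differed by -0.03 ± 0.21 (95% interval -0.55 to 0.49). Igf1r, the receptor of insulin-like growth factor 1, stood at 0.61 and 1.00 with let-7b, against 1.09 and 1.29 with FL empty vector, a difference of -0.38 ± 0.19 (limma adjusted p = 0.588). Igf1r differed by 0.21 ± 0.19 with Lin28b, where its arrays also lay apart from those of the empty vector. Tgfbr1, a receptor kinase for TGF-beta, differed by 0.33 ± 0.18 with Lin28b and by -0.15 ± 0.18 with let-7b, where its second probe gave -0.06 and -0.50.

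The other signalling targets did not follow the common direction in both tissues. Irs2, an adaptor below the insulin and IGF receptors, stood at 0.32 and 0.42 with Lin28b, against 0.62 and 0.95 with BM empty vector, a difference of -0.42 ± 0.22 that was the lowest of the 31. Igdcc3, a transmembrane protein of the immunoglobulin superfamily, stood at -3.48 and -3.36 with Lin28b, against -3.19 and -3.02 with BM empty vector, a difference of -0.32 ± 0.30. In both genes the Lin28b arrays lay below the empty-vector arrays without passing the test (limma adjusted p = 1). With let-7b Irs2 differed by -0.15 ± 0.22 and Igdcc3 by -0.41 ± 0.30, in overlapping groups. Map4k3, a kinase of the MAP4K family, differed by 0.10 ± 0.18 with Lin28b and 0.22 ± 0.18 with let-7b. Fas, the death receptor gene, differed by 0.31 ± 0.30 and 0.06 ± 0.30, and its groups overlapped in both tissues.

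Among the remaining targets, 6 of 7 lay above 0 with Lin28b (median 0.17) and 5 of 7 below 0 with let-7b (median -0.22), or 4 of 6 without Gatm, with 0 of 7 called. Stard13, a RhoGAP with a START domain, had the highest difference of the 31 with Lin28b, from arrays far apart. It stood at -3.70 and -4.48 with Lin28b, against -5.30 and -4.92 with BM empty vector, a difference of 1.02 ± 0.36 (limma adjusted p = 1). In FL, 1 of 2 arrays in each group was well above background for Stard13, and its second probe was well above background on 0 arrays. Fndc3b, a protein with fibronectin type III repeats, stood at -2.11 and -2.33 with Lin28b, against -2.66 and -2.72 with BM empty vector, a difference of 0.47 ± 0.14 (limma adjusted p = 1). It differed by 0.07 ± 0.14 with let-7b. Dtx2, a Deltex ubiquitin ligase of the Notch pathway, differed by 0.32 ± 0.33 with Lin28b and by -0.69 ± 0.33 with let-7b (limma adjusted p = 0.579), in overlapping FL groups but with -0.57 and -0.81 within the slides. Slc20a1, a phosphate transporter whose tested probe holds a seed match, differed by 0.16 ± 0.13 and -0.23 ± 0.13, while its second, dim probe gave -0.18 and 0.35. Ddx19a, an RNA helicase of messenger export, differed by 0.06 ± 0.15 and -0.26 ± 0.15, and Edem3, which acts in degradation of misfolded glycoproteins, by 0.17 ± 0.23 and -0.22 ± 0.23. Gatm, the enzyme of the first step of creatine synthesis, differed by -0.10 ± 0.41 with Lin28b, and on no FL array did its probe clear background.

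**Figure D4:**
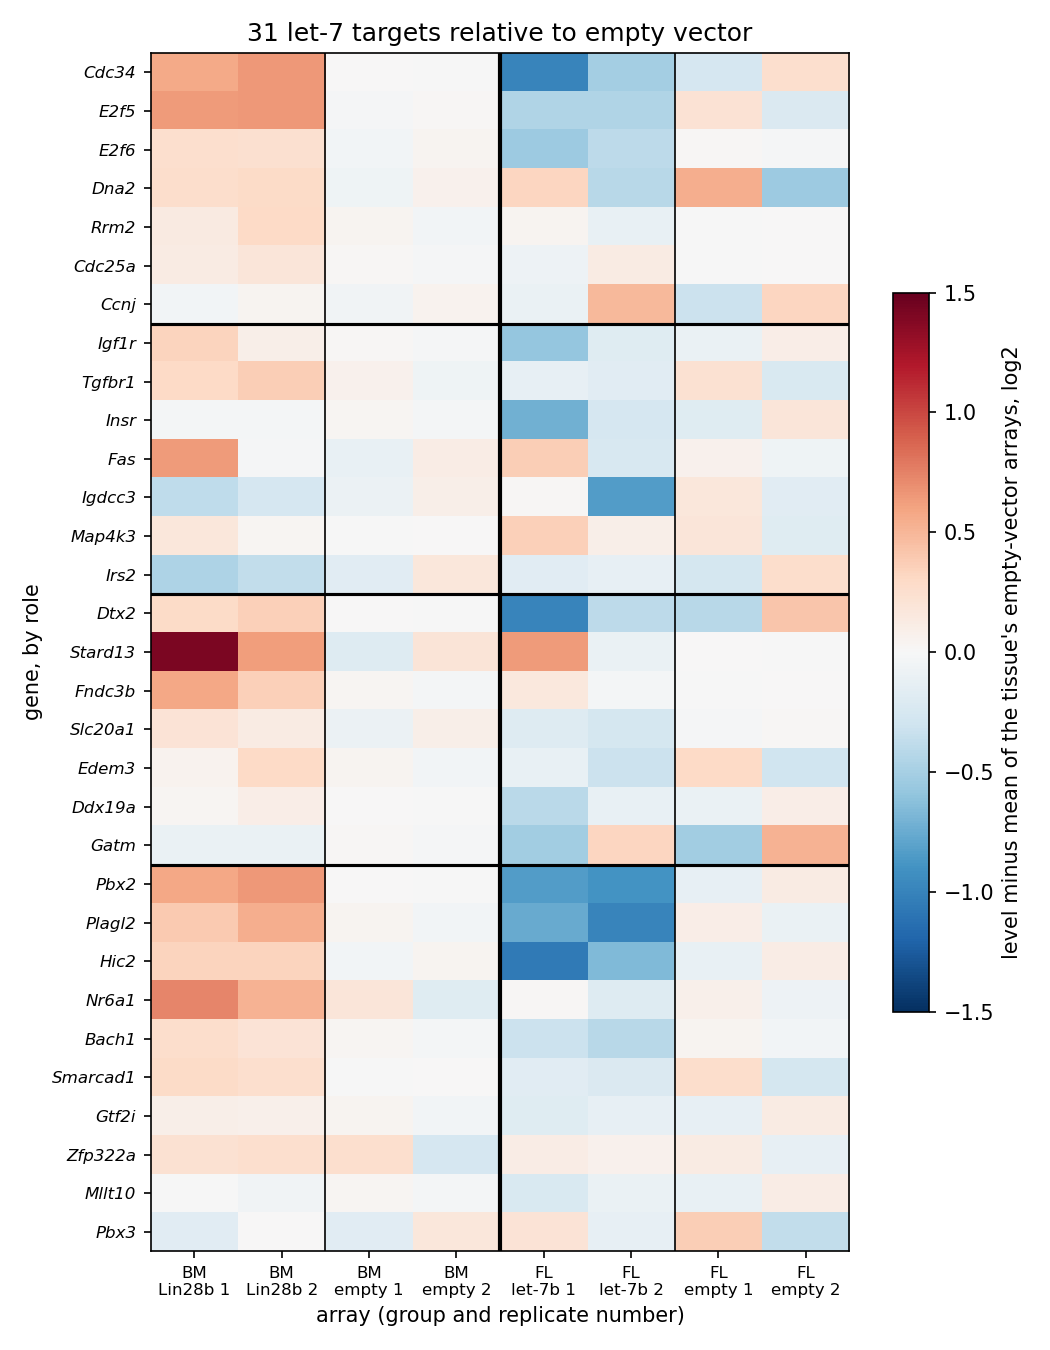
Level of each of the 31 targets on each array minus the mean of the empty-vector arrays of the same tissue, in log2, with genes ordered by role (from the top, cell cycle and DNA synthesis, growth factor signalling, other, transcription and chromatin) and, within a role, by the difference between the effects. Red is higher and blue is lower; the Lin28b columns are mostly red, while both let-7b columns are blue for Cdc34, E2f5, E2f6, Insr, Dtx2, Pbx2, Plagl2 and Hic2, among others.

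Between the tissues, with empty vector in both, the targets split in both directions. Of the 31, 8 were higher and 10 lower in FL, so that 18 (58.1%) were called by limma, against 59.6% of all genes (40.1% higher and 19.5% lower), a share near that background. The 10 lower include Gatm, which was in the test through its BM signal and was not well above background on any FL array. Its call is therefore not independent of the filter on dim probes. The same 8 and 10 had an unadjusted p below 0.05, against 43.8% higher and 21.3% lower among all genes. The difference was above 0 for 17 targets (54.8%), against 64.6% of all genes. Both FL arrays lay above both BM arrays for 14 targets and below them for 12, against 54.8% and 28.3% of all genes. The whole distribution was shifted, with a median FL minus BM difference of 0.52 over all genes and 0.07 over the targets. Relative to the median of all genes, 8 targets lay above and 23 below it. With quantile scaling, where the median of all genes was 0.04, 19 were called (7 higher, 12 lower), of which 17 were also called with percentile scaling in the same direction. Over all genes, 11969 were called with quantile scaling, against 13657 with percentile scaling. The tissue, the age, the vector and the slide differed together and cannot be told apart. Marker signals moved with the tissue too. Summed over 13 pro-B markers they were 934 and 1231 in FL, against 500 and 472 in BM, and over the stromal markers 7.35 and 8.70 in FL, against 21.8 and 23.9 in BM. Gene by gene, 9 of the 13 pro-B markers lay higher in FL and 4 lower, with a median difference of 0.38, against 0.52 over all genes. The brightest pro-B markers in FL were Vpreb1 and Cd79b, with mean levels of 8.65 and 8.39, against 7.47 and 6.09 in BM. Over the 17 myeloid markers on the array the summed signals were 194 and 138 in FL, against 95.4 and 97.6 in BM. Most of each myeloid sum came from Csf3r, with a mean level of 6.91 in FL and 6.44 in BM. Of the 17, 11 were well above background on each FL empty-vector array, against 11 and 12 in BM. The part of other cell types in the differences was not tested.

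The targets higher in FL comprised 3 of the 10 transcription and chromatin factors (30%), 3 of the 7 signalling genes (42.9%), 1 cell cycle gene and 1 of the others, against 40.1% of all genes. Igdcc3 stood at -0.62 and -0.95 in FL, against -3.19 and -3.02 in BM, and rose by 2.32 ± 0.30 (limma adjusted p = 0.00189). Nr6a1 stood at -3.91 and -4.05 in FL, against -5.69 and -6.07 in BM, and rose by 1.90 ± 0.19 (limma adjusted p = 9.59e-04), or by 0.88 with quantile scaling. Igf1r stood at 1.09 and 1.29 in FL, against -0.14 and -0.17 in BM, and rose by 1.34 ± 0.19 (limma adjusted p = 0.00232). These groups lay far apart. Irs2 stood at 1.85 and 2.38 in FL, against 0.62 and 0.95 in BM, and rose by 1.34 ± 0.22 (limma adjusted p = 0.00397). Pbx2 rose by 0.89 ± 0.14 (limma adjusted p = 0.00319) and Bach1 by 0.80 ± 0.12 (limma adjusted p = 0.00294). Dtx2, at 1.02 ± 0.33, and Cdc34, at 0.69 ± 0.24, also passed, and Cdc34 did not pass with quantile scaling (0.20, limma adjusted p = 0.379).

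Among the 7 cell cycle targets 4 fell (57.1%), against 19.5% of all genes. Gatm stood at -7.83 and -6.80 in FL, on neither array well above background, against -1.71 and -1.74 in BM. It was at least 9.83-fold lower in FL (limma adjusted p = 6.26e-04, measured means -7.32 in FL and -1.73 in BM), a bound set by the lowest signal well above background on the FL arrays, and the call was lost with normexp background correction. Slc20a1 stood at 2.13 and 2.16 in FL, against 3.27 and 3.44 in BM, a difference of -1.21 ± 0.13 (limma adjusted p = 0.00111). The other calls were Dna2 (-2.20 ± 0.41), Smarcad1 (-1.03 ± 0.19), Edem3 (-1.02 ± 0.23), Ccnj (-0.89 ± 0.28), Cdc25a (-0.75 ± 0.13), Zfp322a (-0.70 ± 0.20), E2f6 (-0.62 ± 0.12) and Tgfbr1 (-0.54 ± 0.18). Of the 18 calls, 8 held under every setting tried, namely Bach1, Igdcc3, Igf1r, Irs2, Nr6a1, Cdc25a, Dna2 and Slc20a1. Leaving out an array in turn left 12 to 17 calls, with 12 without either BM empty-vector array, and lost the call of Ccnj, Cdc34, Dtx2, E2f6, Edem3, Tgfbr1 or Zfp322a in at least 1 such fit.

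For several targets the probes disagreed between tissues. The second Hic2 probe was higher in FL by 1.45, against 0.07 for the tested one, the second Gtf2i probe by 1.20, against -0.11, and the second Tgfbr1 probe by 1.12, against -0.54. The other 2 Insr probes gave 1.43 and 0.72, against 0.29, and the other 2 Plagl2 probes gave 1.83 and 1.23, against 0.33. Among the other genes with a further kept probe, Dna2 gave -1.07 in place of -2.20, Slc20a1 -0.26 in place of -1.21, Ddx19a -0.03 in place of 0.27 and Ccnj -0.92 in place of -0.89. For 3 genes, Gtf2i, Tgfbr1 and Ddx19a, the direction therefore depends on the probe, and the mean over the probes of a gene turned Gtf2i and Tgfbr1 to above 0 (0.54 and 0.29).

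**Figure D5:**
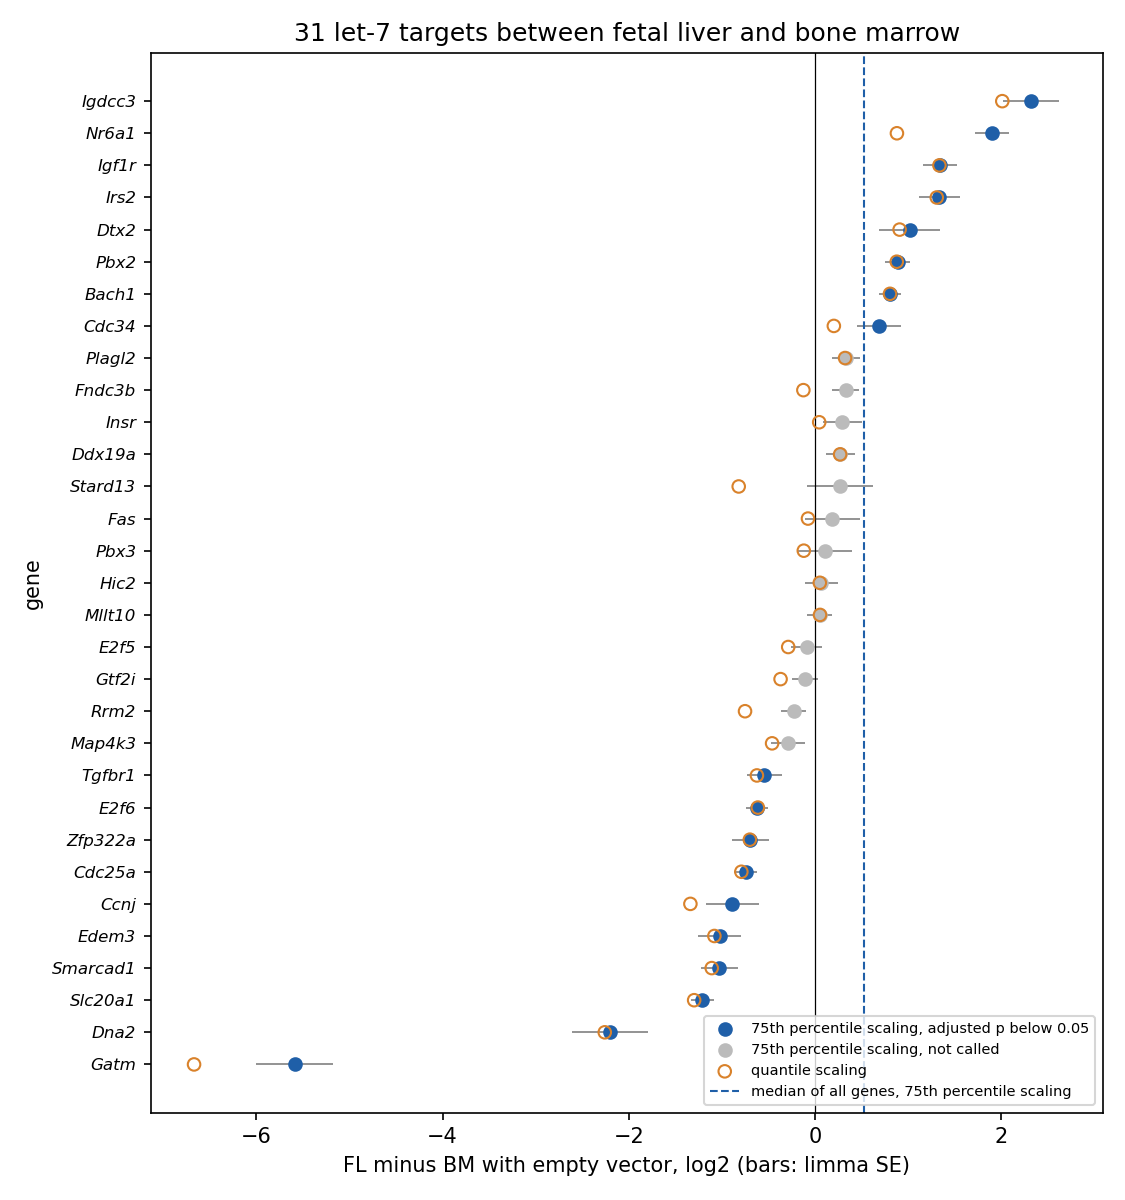
FL minus BM with empty vector for the 31 targets in log2, with percentile scaling (filled points, blue where called, with limma standard errors) and with quantile scaling (open circles). The dashed line is the median of all genes at 0.52 with percentile scaling, and 23 of the 31 targets lie below it; Gatm, at the bottom, is not well above background in FL.

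The tissue difference and the virus effects share their empty-vector arrays, so their values are given only side by side. Of the 8 targets called higher in FL, 6 lay above 0 with Lin28b, against 25 of all 31 targets (80.6%) and 40.7% of all genes. Nr6a1, 1.90 higher in FL, was 0.63 higher with Lin28b in BM, and Pbx2, 0.89 higher in FL, was 0.62 higher. Igf1r, Dtx2, Bach1 and Cdc34, which were 1.34, 1.02, 0.80 and 0.69 higher in FL, differed by 0.21, 0.32, 0.24 and 0.61 with Lin28b. Igdcc3 and Irs2, which were 2.32 and 1.34 higher in FL, differed by -0.32 and -0.42 with Lin28b. Among the targets called lower in FL, E2f6, with a tissue difference of -0.62, differed by 0.25 with Lin28b. Tgfbr1, Smarcad1, Dna2, Zfp322a and Edem3 differed by 0.33, 0.27, 0.27, 0.24 and 0.17 with Lin28b. Slc20a1, Cdc25a, Ccnj and Gatm differed by 0.16, 0.15, 0.00 and -0.10.

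Genes that work with the targets were counted from lists of their pathways. None of the genes on these lists was called with Lin28b or with let-7b, against 0% and 0.0305% of all genes. Counts of list genes higher or lower in FL are of called genes. Among all genes 40.1% were called higher in FL and 19.5% lower, and counts near these shares say nothing about a list. Among 20 insulin and IGF signalling genes tested, the median was -0.02 with Lin28b and -0.25 with let-7b, and 12 were higher and 2 lower in FL than in BM. Irs1, an adaptor like Irs2, differed by 0.46 ± 0.18 with Lin28b and by -0.85 ± 0.18 with let-7b (limma adjusted p = 0.248), and rose by 3.29 ± 0.18 in FL relative to BM (limma adjusted p = 4.57e-04). Irs1 therefore lay on the side shared by Pbx2 and Plagl2, unlike the target Irs2. Of the same list, Grb10, an inhibitor of these receptors, rose by 4.42 ± 0.25 in FL.

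In the TGF-beta list Tgfb3, a ligand of these receptors, differed by -0.22 ± 0.18 with Lin28b and by 0.91 ± 0.18 with let-7b (limma adjusted p = 0.210), opposite in sign to most targets. The list (17 tested) had medians of 0.14 with Lin28b and -0.0046 with let-7b, and 8 were higher and 2 lower in FL. Acvr2b, an activin receptor gene, differed by 0.14 ± 0.16 and -0.64 ± 0.16, and Smad3, a signal transducer of Tgfbr1, by 0.20 ± 0.16 and -0.60 ± 0.16 (limma adjusted p = 0.313 and 0.323 with let-7b). The 16 E2F and RB proteins that are not among the targets had medians of -0.02 with Lin28b and 0.11 with let-7b, where 13 of 16 lay above 0, and 3 were higher and 7 lower in FL. E2f7, another repressor, differed by -0.11 ± 0.13 and 0.42 ± 0.13, which is the reverse of E2f5 and E2f6 in sign. The 16 partners of CDC25, ubiquitin and nucleotide supply had medians of 0.03 and 0.04, and 2 were higher and 7 lower in FL.

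The 8 PBX and MEIS factors that are not targets had medians of -0.11 with Lin28b and 0.15 with let-7b. In this list 3 were higher and 1 lower in FL. The 11 BACH and small MAF genes had medians of -0.06 and 0.02, and Bach2 differed by -0.24 ± 0.23 and 0.61 ± 0.23, the reverse of Bach1 in sign. In that list 3 were higher and 3 lower in FL. The 10 Fas pathway genes tested had medians of -0.12 and 0.05, with 0 higher and 5 lower in FL.

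Among 19 genes of let-7 processing and microRNA silencing, the medians were 0.02 with Lin28b and -0.05 with let-7b, and 4 were higher and 4 lower in FL. Dicer1, which encodes the enzyme that cuts microRNA precursors, differed by 0.34 ± 0.15 with Lin28b and by -0.88 ± 0.15 with let-7b (limma adjusted p = 0.160). Tarbp2, a partner of Dicer, differed by 0.55 ± 0.20 with Lin28b. Dgcr8, a partner of Drosha, differed by 1.00 ± 0.16 with let-7b (limma adjusted p = 0.141), opposite to Dicer1. For scale, 18 tested genes of the let-7 target families left out here had medians of 0.31 with Lin28b (14 above 0) and -0.20 with let-7b (12 below 0). Among all genes 40.7% lay above 0 with Lin28b and 57.2% below 0 with let-7b. The 18 include Lin28b itself, the gene that the virus carried in BM. The 31 targets, at 0.24 and -0.17, lay in the same direction as these 18.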

How the data were processed

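Agilent Feature Extraction 9.5.3.1 made the spot intensities and subtracted the background, per the file headers; the array design uses mouse build mm9. The deposited intensity of each of 43020 spots that are not controls was converted to log2 and set relative to the array's 75th percentile. Spots of a probe were averaged, 31 probes with an outlier spot were left out, and probes well above background on at least 2 of 8 arrays were kept (28409 of 39429). The brightest kept probe stood for a gene. limma 3.58.1 in R 4.3.3 (files read with version 1.17.8 of data.table) was fitted with a mean per group over all 8 arrays, and p-values were adjusted (Benjamini-Hochberg) over 22927 genes. The fit was tested on simulated data. A second deposited table holds log2 values normalized by the authors; the sources used here do not state the method, and the centring of its columns stays unknown (medians of 7.22 in BM and 6.16 in FL), so it served only as an alternative. Figures were drawn with matplotlib 3.10.9 in Python 3.11.15.

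Every target is named. The 8 with the smallest p for the difference of effects are given value by value, and called targets up to 8 by adjusted p. From a pathway list, genes came from the 3 with the smallest unadjusted p in a comparison. The targets and lists were chosen with earlier results of these data known. Alternatives were quantile scaling, normexp (offset 50), other probe filters, trended and robust variance, the mean over probes, only the 4 arrays compared, the replicate number as a block, the authors' deposited values, and each array left out.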

Additional observations from a re-analysis of the deposited data

How the results depend on the processing

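No target was called with Lin28b under any setting tried, and the count above 0 stayed between 24 and 26 of 31. For let-7b the count of called targets was 1 with trended and robust variance (Pbx2), 2 with the replicate block and that variance (Pbx2 and Plagl2), and 0 to 1 with an array left out, where the 1 was Pbx2 without FL empty-vector replicate 1. For the difference of effects it was 1 with trended and robust variance (Pbx2) and 3 with the replicate block added (Pbx2, Cdc34 and Plagl2), and 0 with any array left out. Over all genes, the difference of effects was called for 56 with trended and robust variance and for 80 with the block added. The main fit called 1. The plain replicate block changed no count of called targets (0, 0, 0 and 18). Same-numbered arrays deviated together in FL (correlation 0.5169) and not in BM (-0.0553), and the labels do not say that a number marks a shared sort. For FL against BM, 9 targets were called with normexp (5 higher, 4 lower), where 10400 of all genes were called, against 13657 in the main fit. Under the other settings that kept every group at 2 arrays, 13 to 21 targets and 11492 to 18936 of all genes were called. Of the called FL against BM differences, Ccnj turned to 0.0789 with normexp (limma adjusted p = 0.913) and Tgfbr1 to 0.29 with the mean over probes (limma adjusted p = 0.103), while Gtf2i, not called with its brightest probe, turned to 0.54 and was called (limma adjusted p = 0.0208). That mean takes in the second probes of Tgfbr1 and Gtf2i, at 1.12 and 1.20. With quantile scaling the brightest Gtf2i probe was called lower in FL (-0.37, limma adjusted p = 0.0320). The cause of the turn of Ccnj was not tested. Over all genes, calls for let-7b numbered 7, against 0 under 12 of 18 other settings (normexp, no filter, only the 4 arrays, the plain replicate block, the deposited table, and 7 of the 8 arrays left out), 86 with quantile scaling, 85 with trended variance, 133 with the block added, 46 with the stricter filter and 522 without FL empty-vector replicate 1. Of 2139 fold changes of the targets under other settings, 94 changed sign, 51 with an array left out and 24 with normexp. In FL the 75th percentile of the signal was 271 to 488, against 1925 to 2234 in BM, which limits dim targets such as Stard13 and Gatm.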

Other observations

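Across the whole array, 108 tested genes had CTACCTC, the complement of the let-7 seed, in the probe that stood for them. With let-7b in FL, 74 of the 108 lay below 0 (68.5%), with a median of -0.17, against 57.2% of all genes with a median of -0.06. With Lin28b in BM, 60 of the 108 lay above 0 (55.6%), with a median of 0.02, against 40.7% of all genes with a median of -0.04. Pbx2, Pbx3 and Slc20a1 are among the 108. These are descriptions with no test, and a probe shows only a short stretch of a messenger.

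Both Lin28b probes lay higher with the Lin28b virus in BM and lower with let-7b in FL, with no overlap of the groups. The second probe stood at -5.86 and -5.75 with Lin28b, against -6.58 and -6.32 with BM empty vector, and at -0.18 and -0.10 with let-7b, against 1.47 and 0.66 with FL empty vector. The first stood at -3.26 and -2.60 with let-7b, against -2.40 and -2.53 with FL empty vector.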
